A study of Mus musculus with 10 samples.

Results

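The trimethylation of histone H3 at lysine 4 (H3K4me3) was compared between mouse embryonic stem cells with BAF250a (WT) and the same kind of cells after its loss (KO), as the width, spacing, joining, dividing and read density of enriched intervals, called islands, over the 19 autosomes. All autosomal islands of the H3K4me3 lists were taken: 27207 of 28365 WT islands and 39509 of 40978 KO islands, or 66716 of 69343 in all. Cells of both groups were of strain 129/C57BL/6 and were kept with serum and LIF on embryonic fibroblast feeders. The KO cells carried the BAF250a knockout and were given 1 µM 4-OH tamoxifen for 36 hours from 4 hours after passage, and the WT cells were given ethanol over the same time, so that genotype and drug cannot be told apart. The labels and notes at hand do not name what drives the recombinase, or say whether feeder cells were removed or the cells are 1 clone. With 1 library per genotype, the comparisons have no replicate check, no p-value was computed, and each difference is one between 2 libraries.

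H3K4me3 is written by the SET1 and MLL methyltransferase complexes and lies around the start sites of active and poised genes, above all at CpG-rich promoters. Most marked promoters carry a compact interval, and a minority, often of genes central to the identity of a cell type, carry a long one. BAF250a, the product of Arid1a, is a DNA-binding subunit of the BAF (SWI/SNF) complex, which uses ATP to move and evict nucleosomes, the particles that carry the mark. In embryonic stem cells the form of the complex that holds BAF250a is known for its part in self-renewal and in differentiation. In bulk chromatin, more cells with a mark and more mark per cell cannot be told apart.

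The WT islands held 9347232 ChIP reads over 98.6 Mb and the KO islands 13205844 over 143.9 Mb. Single islands held from 15 to 7324 reads in WT and from 16 to 7486 in KO. Library totals are not given in the lists. The ratio of ChIP to input depth was 1.78 in WT and 1.35 in KO, and the fold over input used below is ChIP over control (input) reads in an interval divided by that ratio. All 95% intervals treat islands, regions or reads as independent draws and leave out the difference between one library and the next. The lists use mm9 positions, and no gene annotation of that build was used here; islands are therefore given by position, with no gene, and the check of the cells' marker genes and of the deletion in Arid1a was not made.

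The KO library had more islands in each class of width, most of all among the longest, and they lay closer together. The 10th and 25th percentiles of width were 800 and 1200 bp in both libraries. The median was 2400 bp in WT (95% interval 2400 to 2600) and 2000 bp in KO (2000 to 2000), the 75th percentile 5200 and 4800 bp, the 90th 8000 and 8400 bp, and the 99th 14000 and 19000 bp. The curves of the 2 libraries cross between these, and the longest island was 46000 bp in WT and 60600 bp in KO. Islands of 10 kb or wider numbered 1217 in WT and 2691 in KO, 2.21 times as many against 1.45 times for all islands, and they held 20.6% of WT and 36.1% of KO island reads. Islands of 1 kb or less numbered 5263 and 8346, or 19.3% and 21.1% of the islands, with 2.10% and 2.49% of the reads. The order of the medians depended on which islands were kept. When the KO list alone was cut to its 27207 islands with most reads, its median width was 3400 bp. Reads rose with width, so this cut takes out mainly narrow KO islands and favours a wider KO median. Cuts made in both lists left WT the wider, at 3400 and 2600 bp with an FDR of 1e-05 or less. With a fold of 2 or more the medians were 3400 and 2400 bp.

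The gap from an island to its neighbour was shorter in KO over most of its range. The median gap was 27600 bp in WT (26800 to 28400) and 17400 bp in KO (17000 to 18000), and the 90th percentile 227400 and 156800 bp. No gap was under 400 bp in either list. Gaps of up to 2000 bp made up 18.8% of gaps in WT (5115) and 19.9% in KO (7876), so close neighbours were about as common in both. With equal list lengths the median gap in KO was 26400 bp.

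**Figure D1:**
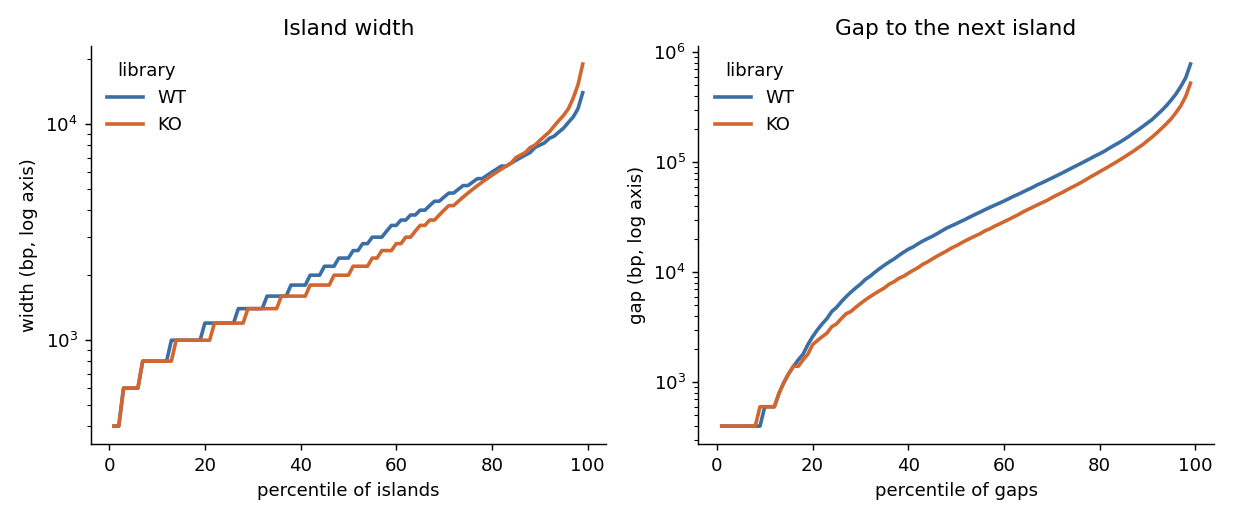
Width of autosomal H3K4me3 islands (left) and gap to the next island (right), both in bp on a log axis, at each percentile from 1 to 99, for the WT and KO libraries. KO lies below WT at the median width (2000 and 2400 bp) and above it at the 99th percentile (19000 and 14000 bp), and its median gap is shorter (17400 and 27600 bp).

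Overlapping islands of the libraries were grouped into regions. One WT island met one KO island in 19041 regions, which held 66.2% of WT and 61.2% of KO island reads. Several WT islands lay under 1 KO island in 2370 regions (joined in KO), and 1 WT island lay over several KO islands in 620 (divided in KO). In 330 regions several islands of each list were linked. The remaining regions were 16129 KO islands and 1438 WT islands with no overlap, 40.8% of the KO list and 5.29% of the WT list. These shares depended on the length of the lists: with equal lengths 77.6% of KO and 88.4% of WT islands had a partner, against 59.2% and 94.7% in the full lists.

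Counted in base pairs, 91.1 Mb lay in islands of both libraries, 52.8 Mb in KO islands alone and 7.51 Mb in WT islands alone. Of the WT called length, 92.4% was also called in KO, and of the KO called length, 63.3% was also called in WT. The KO-only length fell almost evenly into islands with no WT partner (25.3 Mb, 47.9%) and edges of islands with a partner (24.4 Mb, 46.2%), while gaps between WT islands that 1 KO island covered made up 3.12 Mb (5.92%). Islands with no WT partner and longer edges thus contributed far more length than joining. These KO islands held 7.61% of KO island reads, with a median of 47 reads and a median fold of 2.33. The WT islands with no KO partner held 0.647% of WT island reads, with medians of 35 reads and a fold of 2.60. The lists give no reads of the other library at such places, so a missing call does not show absence of the mark. Of the WT-only length, 5.08 Mb lay at edges, 1.78 Mb in islands with no KO partner and 0.655 Mb in gaps between KO islands.

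In the 19041 one-to-one regions the KO island was usually the longer, by a few windows of 200 bp. It was wider in 13476 (70.8%, 95% interval 70.1 to 71.4%), of equal width in 1801 and narrower in 3764 (19.8%, 19.2 to 20.3%), with median widths of 2600 bp in WT and 3400 bp in KO and a median gain of 400 bp. A KO width of at least 1.5 times the WT width was found in 28.9% of these regions, and a WT width of at least 1.5 times the KO width in 3.35%.

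Over all regions, left and right edges gave nearly the same values. Left and right are coordinates with no orientation to a gene, so this likeness says nothing about the sides of single islands. The left edge (lower coordinate) lay farther out in KO in 58.6% of regions and farther in in 21.5%, and the right edge in 58.8% and 21.0%. The median shift was 200 bp outward on each side, the mean 387 and 402 bp, and 90% of shifts were at most 1400 bp outward on either side. Both edges were farther out in 6843 regions (35.9%), both farther in in 1106 (5.81%) and both unmoved in 920 (4.83%). In 4375 regions (23.0%) one edge was farther out and the other farther in, so that the island was displaced. Over the regions, left and right shifts had a Pearson r of 0.14, a description across regions of the same libraries.

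**Figure D2:**
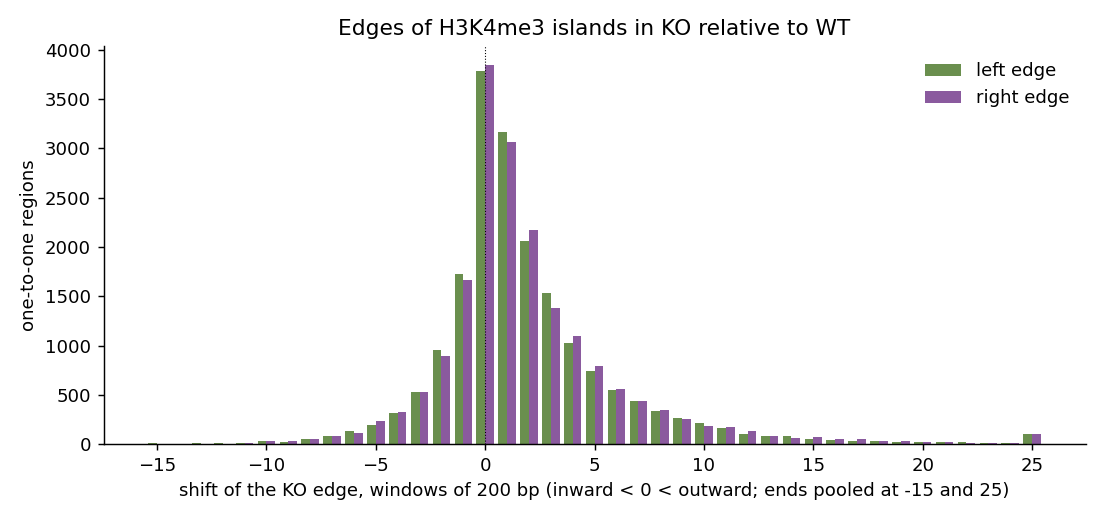
Shift of the left and right edge of the KO island relative to the WT island, in windows of 200 bp, for the 19041 one-to-one regions; values above 0 are outward, and shifts beyond the ends of the axis are pooled at -15 and 25. Both edges have the same shape, with the highest bar at 0 and more regions on the outward than on the inward side (58.6% and 21.5% for the left edge).

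The gain was present in each class of WT width. By that width, the KO island was wider in 82.2% of regions of up to 600 bp, in 70.6% of those of 1200 to 2000 bp, in 64.7% of those of 6200 to 10000 bp and in 67.8% of those over 10 kb, where the median went from 11800 to 13200 bp. Sorting by WT width favours gains in narrow islands. Sorted by KO width the trend ran the other way, from 20.3% wider (41.8% narrower) at up to 600 bp to 88.9% wider over 10 kb. Sorted by the geometric mean of both folds, which favours neither library, the share was 71.4% in the lowest of 5 equal parts and 64.9% in the highest.

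The largest gain in a one-to-one region (of those with at least 100 reads per library) was at chromosome 1, 120521801 to 120551200. Its WT island covered 7 kb with 799 reads and its KO island 29.4 kb with 2501 reads; the left edge lay 1400 bp and the right edge 21000 bp farther out. The folds over input were 5.54 (WT) and 5.40 (KO), so the KO island was longer at about the same fold. At chromosome 17, 29204601 to 29222800, the island went from 3.4 to 18.2 kb with folds of 4.15 and 4.07, with both edges farther out (8800 and 6000 bp). At chromosome 11, 8463201 to 8481600, it went from 4.2 to 18.4 kb and the fold was higher in KO (1.75 and 3.06).

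The largest losses of width were smaller. At chromosome 2, 147864001 to 147873600, the island covered 9.4 kb in WT (520 reads) and 4.4 kb in KO (219 reads). Control reads there were 165 and 50, and the folds 1.77 and 3.25. At chromosome 14, 45967601 to 45976800, both edges were farther in (2000 and 2600 bp), from 9.2 to 4.6 kb, yet the island held nearly the same number of reads, 757 in WT and 753 in KO, with folds of 7.46 and 14.7. At chromosome 13, 97901601 to 97914000, the island went from 12.4 to 8.2 kb with 1231 and 1157 reads. The last 2 were thus shorter and denser in KO (82.3 and 164 reads per kb, 99.3 and 141 reads per kb).

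Joining in KO was more frequent than dividing, by 3.82 times in the full lists. The size of this ratio depended on the lists: with equal lengths 2471 regions were joined and 219 divided, and with islands 600 bp or less apart joined beforehand in both lists the counts were 1306 and 200. The 2370 joined regions took up 5306 WT islands, 19.5% of the WT list, and held 23.6% of its reads. In 1952 of them 2 WT islands were joined, in 320 it was 3 and in 98 it was 4 or more, up to 7. The median fold of joined regions was 4.50 in WT, against 2.82 in all one-to-one regions, and 6.78 in KO. Divided regions (4.38 and 6.35) and mixed regions (4.65 and 6.58) had about the same median folds, so this was not a trait of joined regions alone. Joined regions were also longer, with a median WT called length of 8000 bp against 2600 bp. One-to-one regions with a WT island of 6200 to 10000 bp had higher median folds than joined ones, 5.54 and 8.24. The length filled between the WT islands was short, with a median of 600 bp and a 90th percentile of 2220 bp. In 71.5% of joined regions the KO island was also longer than the whole span of the WT islands. That share was near the 70.8% of one-to-one regions wider in KO, so it was not particular to joined regions. The 620 divided regions were WT islands with a median of 7200 bp, with 593 divided into 2, 26 into 3 and 1 into 4. The median length between their KO parts was 400 bp, which is the shortest gap the lists contain.

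Each of the 3 regions with most WT islands joined had 7. At chromosome 17, 13170201 to 13207600, 7 WT islands covered 20.6 kb with 2605 reads, and 1 KO island covered 37.4 kb with 4424 reads, with folds of 6.39 and 8.24. At chromosome 2, 165805801 to 165840200, they covered 22 kb with 1546 reads and the KO island 34.4 kb with 3230, with folds of 2.98 and 6.03. At chromosome 16, 8717201 to 8742400, the lengths were 18.6 and 25.2 kb and the folds 3.91 and 6.12. The fold was higher in KO in all 3, with a log2 ratio of 0.37 (0.12 to 0.61), 1.02 (0.78 to 1.25) and 0.65 (0.38 to 0.91), where the intervals cover read counting error only.

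The most divided region, at chromosome 8, 72560801 to 72572200, had 1 WT island of 11 kb (1139 reads) and 4 KO islands of 10 kb in all (1327 reads). At chromosome 11, 80187601 to 80208200, 1 WT island of 18.6 kb (2380 reads) met 3 KO islands of 19.8 kb (2993 reads), and at chromosome 2, 121264801 to 121287200, 1 of 22.4 kb (2263 reads) met 3 of 21.2 kb (2474 reads). Unscaled reads and fold were not lower in KO there, with folds of 6.47 and 8.96, 9.42 and 12.0, and 4.34 and 6.59. Over all divided regions the fold was higher in KO in 92.3%, and over all joined regions in 94.98%, both near the 91.4% over all shared regions.

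Many of the longest KO islands overlapped several WT islands. Of KO islands over 10 kb, 49.6% (1258 of 2534) overlapped several WT islands, against 19.4% at 6200 to 10000 bp and 8.78% at 4200 to 6000 bp. Among WT islands the share that overlapped several KO islands also rose with width. It was 3.82% at 4200 to 6000 bp, 9.08% at 6200 to 10000 bp and 17.0% (190 of 1120) over 10 kb. A longer island can overlap more islands of the other list, so sorting by width itself favours such a rise. Among the 2691 KO islands of 10 kb or wider, the widest WT partner was itself 10 kb or wider in 1051 (39.1%), of 5 kb to under 10 kb in 1459 (54.2%) and under 5 kb in 167 (6.21%), and 14 had none. Most long KO islands therefore lay where a WT island of at least 5 kb was already called. Among the 1217 WT islands of that width, 1060 (87.1%) had a KO partner of 10 kb or wider.

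Gaps of the same size were closed far more often from WT to KO than from KO to WT. Of WT gaps of 400 bp, 1977 of 2450 lay inside 1 KO island (80.7%, 79.1 to 82.2%), and of KO gaps of 400 bp, 914 of 3546 lay inside 1 WT island (25.8%, 24.3 to 27.2%). At 600 bp the shares were 66.4% and 14.3%, at 800 to 1000 bp 53.5% and 6.91%, at 1200 to 2000 bp 36.7% and 3.32%, and at 2200 to 5000 bp 12.6% and 0.209%. Of 4268 KO gaps of 5200 to 10000 bp, 0 were closed in WT, against 40 of 2104 WT gaps closed in KO.

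A KO gap beside an island with no WT partner was seldom closed in WT, so the gaps were also compared where both neighbours had a partner, a choice made after the values were seen. The shares of gaps of up to 2000 bp were then 75.6% for WT gaps closed in KO (74.3 to 76.9%, n = 4288) and 41.8% for KO gaps closed in WT (39.9 to 43.7%, n = 2661), against 65.1% and 15.6% over all gaps. WT gaps were closed more often than KO gaps at each gap size up to 5000 bp here too. At 400 bp the shares were 89.0% and 57.7%, closer together than over all gaps, and at 1200 to 2000 bp they were 45.4% and 11.2%, about as far apart as over all gaps.

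**Figure D3:**
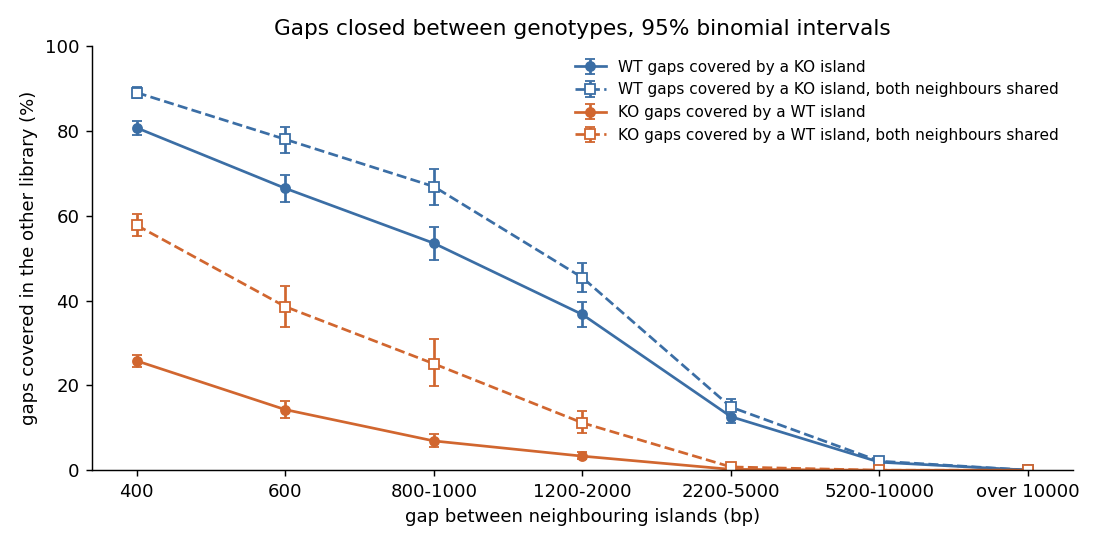
Share (%) of gaps between neighbouring islands that 1 island of the other library covers whole, by gap size in bp, with 95% binomial intervals; solid lines are all gaps, dashed lines gaps whose neighbours both have a partner. WT gaps closed in KO lie above KO gaps closed in WT from 400 bp (80.7% and 25.8%) to 2200 to 5000 bp (12.6% and 0.209%).

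Fold over input fell slightly and then rose with island width in both lists, and the KO median was the higher in each width class. At up to 600 bp the median fold was 2.59 in WT and 3.22 in KO, and at 1200 to 2000 bp, where both lists were lowest, it was 2.16 and 2.60. At 4200 to 6000 bp it was 4.19 and 5.29, at 6200 to 10000 bp 5.53 and 7.20, and over 10 kb 5.82 and 7.73. Unscaled read density had a similar shape, from 41.0 (WT) and 40.0 (KO) reads per kb at 1200 to 2000 bp to 121.5 and 120.4 over 10 kb. Medians of control reads were 11.0 to 14.2 per kb in the WT classes and 11.6 to 12.6 in the KO classes, so most of the rise from 1200 to 2000 bp upward was in the ChIP reads. Long islands were thus also the densest.

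**Figure D4:**
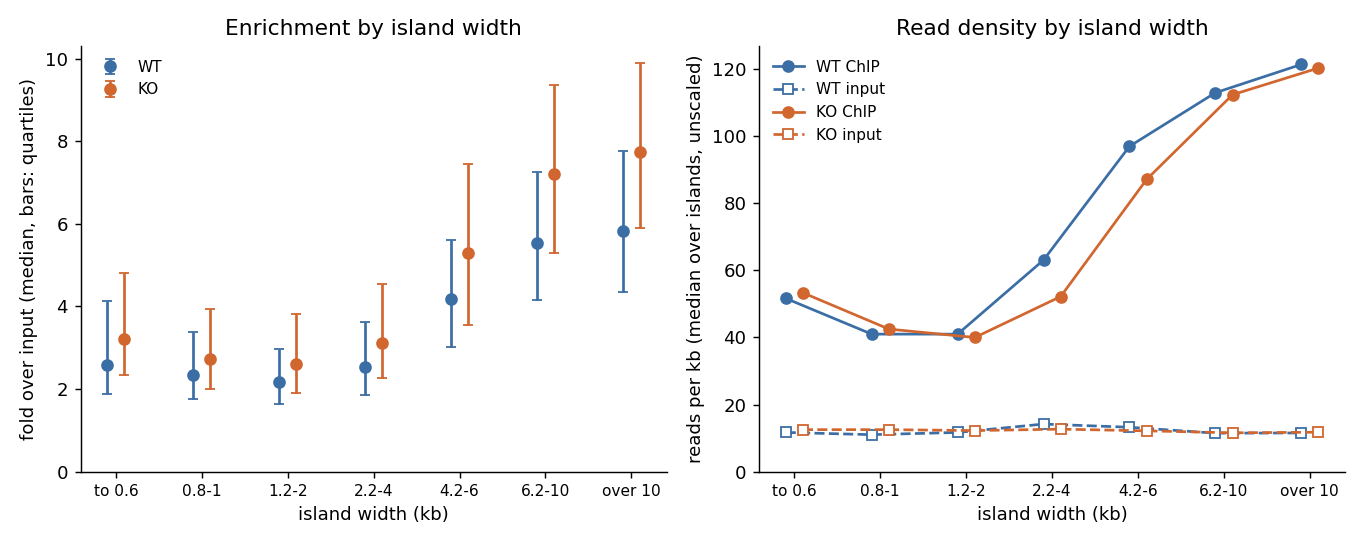
Left, median fold over input (bars: quartiles) and right, median ChIP and input reads per kb (unscaled) of autosomal islands by width class in kb, for the WT and KO libraries. Fold and ChIP density are lowest at 1200 to 2000 bp (2.16 in WT and 2.60 in KO) and highest above 10 kb (5.82 and 7.73), while input density is nearly level.

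In 22295 shared regions each library had 20 reads or more. Their fold over input was at least 1.5 times as high in KO in 56.5% and at least 1.5 times as high in WT in 2.17%. On the log2 scale the median KO over WT fold was 0.68 in one-to-one regions, 0.60 in joined, 0.55 in divided and 0.53 in mixed regions. When reads were scaled to the total in shared regions, which takes out any difference common to all of them, 16.1% of regions were at least 1.5 times higher and 5.97% at least 1.5 times lower in KO. The scaled medians were 0.06 in one-to-one, 0.01 in joined, −0.19 in divided and −0.09 in mixed regions. Scaled reads were higher in KO in 20.3% of divided and 30.6% of mixed regions, against 54.1% of all shared regions. The 95% intervals of the divided (−0.21 to −0.16) and mixed (−0.12 to −0.07) medians lay below 0, a level set by the scaling. These reads are sums over called length, so the choice of divided regions itself favours low values. KO called length was 1.05 times that of WT in divided, 1.14 times in mixed and 1.22 times in all shared regions. Unscaled reads per kb were higher in KO in divided (97.0 and 107.3) and mixed regions (103.9 and 111.9), as over all shared regions (95.9 and 102.9). Over all shared regions the 10th to 90th percentile ran from −0.44 to 0.78. The scaled median over all shared regions, 0.04, was −0.05 where 100 or more reads were required in each library, so it had no stable sign.

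The 920 intervals with the same start and end in both lists compare density with no difference in width. They held 165906 WT and 199325 KO ChIP reads, a KO over WT ratio of 1.201 (1.194 to 1.209), against 26368 and 25634 control reads, a ratio of 0.972 (0.956 to 0.989). Pooled folds were 3.54 and 5.78, and the fold was higher in KO in 798 of the 920 (86.7%), somewhat below the 90.8% over all one-to-one regions.

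Density went with the change in width. One-to-one regions with the same width had WT and KO densities of 85.1 and 100.4 reads per kb, and those at least 1000 bp narrower in KO had 87.2 and 113.0. Those 1000 to 1800 bp wider had 98.2 in both libraries, and those 2000 bp or more wider had 107.9 in WT and 98.9 in KO. Those 200 to 800 bp wider, the most common gain (7038 regions), had 85.8 in WT and 94.0 in KO. These densities were pooled over regions and not scaled for depth, so they cannot place KO above or below WT in any set. What they compare is the sets: KO density relative to WT was lower with gains of 1000 bp or more than with smaller gains. The median log2 KO over WT ratio of unscaled reads per kb was 0.32 at the same width and 0.20 at gains of 200 to 800 bp. It was 0.05 at gains of 1000 to 1800 bp and −0.03 at 2000 bp or more. The fold was higher in KO in 88.3% to 92.1% of the regions of each set, around the 90.8% over all one-to-one regions. The islands that gained 2000 bp or more were dense ones in WT, and the choice by gain itself favours a drop in density.

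The 3 one-to-one regions with the highest KO over WT fold, among those with 100 ChIP and 20 control reads in each library, were of modest width. At chromosome 17, 66581401 to 66585200, 141 reads over 2.6 kb in WT stood beside 440 over 3.8 kb in KO, with folds of 1.495 and 8.60 and a log2 ratio of 2.52 (1.86 to 3.19). At chromosome 6, 85103801 to 85106800, there were 107 reads over 2.2 kb and 221 over 2.6 kb, with folds of 1.40 and 6.84. At chromosome 2, 110786201 to 110791000, there were 116 reads over 2 kb and 669 over 4.8 kb, with folds of 2.83 and 12.7. Control reads were 53 and 38, 43 and 24, and 23 and 39, so in the first 2 fewer control reads in KO go into the ratio as well. The choice by this ratio itself favours extreme values, here and among the lowest below, and the counting intervals leave that choice out.

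The lowest KO over WT folds were of smaller size. At chromosome 1, 162235801 to 162240800, reads went from 568 over 5 kb to 249 over 4.8 kb, with 40 and 48 control reads and folds of 7.98 and 3.85, a log2 ratio of −1.05 (−1.69 to −0.41). This island kept its left edge and changed by 1 window on the right, so that its lower KO fold came with nearly the same width. At chromosome 4, 146017401 to 146028000, folds were 2.39 and 1.22, with 443 and 323 ChIP reads and 104 and 197 control reads. At chromosome 9, 39409601 to 39413200, they were 3.67 and 1.98, with 209 and 112 ChIP reads and 32 and 42 control reads.

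The one-to-one regions with most reads were long and nearly fixed in position. At chromosome 6, 47600001 to 47637200, both libraries had the same 37.2 kb island, with 5594 and 6833 ChIP reads but also 2168 and 2265 control reads, and folds of 1.45 and 2.24. At chromosome 11, 3080801 to 3108200, 4165 and 6078 ChIP reads stood beside 2199 and 4069 control reads, with folds of 1.06 and 1.11, so that these reads were barely above input. At chromosome 19, 8942001 to 8978600, a 36.2 kb island shifted by 400 bp to lower coordinates had 4647 and 5567 ChIP reads, 488 and 486 control reads, and folds of 5.35 and 8.51. Among islands with identical ends, chromosome 14, 51540801 to 51560200 (19.4 kb), had 2630 and 2894 reads with folds of 8.12 and 10.1. The interval at chromosome 6, 134865401 to 134881800 (16.4 kb), had fewer reads in KO, 2403 against 2967, and folds of 7.07 and 8.23, whose log2 ratio of 0.22 (−0.06 to 0.50) spanned 0.

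Islands without a partner differed between the libraries in where they lay. The 1438 WT islands with no KO partner lay close to KO islands, at a median distance of 1600 bp, with 67.7% within 5 kb and 101 directly adjoining a KO island. The 16129 KO islands with no WT partner lay at a median of 12200 bp from the nearest WT island, with 30.5% within 5 kb and 124 adjoining one. The KO list is the denser of the 2, which shortens the distance from a WT island. Measured within their own list, WT islands without a partner had their nearest neighbour at a median of 1600 bp and those with a partner at 10400 bp, and for KO the values were 5200 and 7800 bp. Islands found in WT alone were thus mostly in crowded places, and those found in KO alone less so.

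Both kinds were small, with a median width of 1200 bp. Median control reads were 7.22 per kb in WT islands without a partner and 12.5 in KO islands without one, against medians of 12.2 in both whole lists, so low input goes with the WT calls; its part in them was not tested. By width, the share of KO islands with a WT partner rose from 19.7% at up to 600 bp to 42.1% at 1200 to 2000 bp, 91.0% at 4200 to 6000 bp and 99.4% over 10 kb. For WT islands it was 86.9% at up to 600 bp and at least 98.4% in each class from 2200 bp.

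The 3 widest WT islands with no KO partner had low folds. The first lay at chromosome 8, 19765201 to 19776400 (570 ChIP and 291 control reads, fold 1.101), and the next at chromosome 4, 146801401 to 146808600 (343 and 136 reads, fold 1.42) and 146995401 to 147002000 (257 and 63 reads, fold 2.29). The widest KO islands with no WT partner were longer, at chromosome 1, 183890001 to 183912800 (22.8 kb), chromosome 13, 53268801 to 53291400 (22.6 kb), and chromosome 10, 76585001 to 76605000 (20 kb). Their folds of 4.29, 2.89 and 2.23 were also low for their width, against a median of 7.73 for KO islands over 10 kb. At 44.6, 53.5 and 44.8 reads per kb they were sparse for their width, since the median KO island over 10 kb had 120.4.

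The differences were spread over the genome. On all 19 autosomes the KO library had more islands, more called length and more island reads, with unscaled KO over WT ratios of 1.30 to 1.55, 1.31 to 1.53 and 1.32 to 1.46. On every autosome joined regions outnumbered divided ones, by 2.24 times on chromosome 1 to 6.33 times on chromosome 18, and most one-to-one islands were wider in KO (65.2 to 78.7%). The median of the log2 fold ratio ran only from 0.60 (chromosome 17) to 0.68 (chromosome 10). Chromosome 13 had the lowest value of all 3 ratios, the lowest share of wider islands, the lowest share of WT gaps of up to 2000 bp closed (55.8%, median of the autosomes 66.7%) and the highest share of WT islands without a partner (8.57%, median 5.14%). Its control reads per kb were also the lowest of the autosomes in both libraries (10.7 in WT and 10.9 in KO), and their part in these values was not tested.

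**Figure D5:**
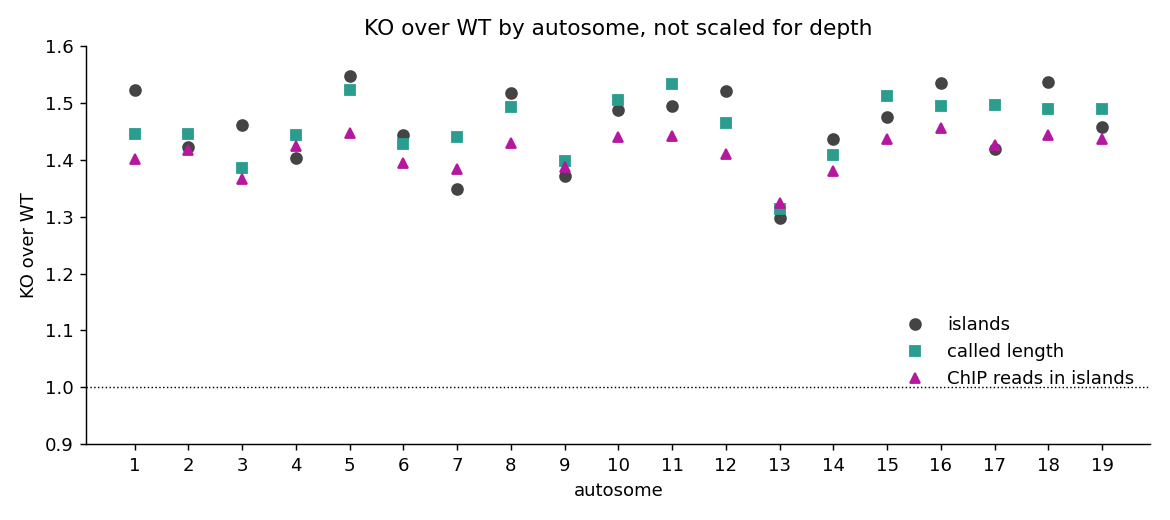
KO over WT ratio of the number of islands, called length and ChIP reads in islands for each of the 19 autosomes, not scaled for depth; the dotted line marks equality. All points lie above 1, between 1.30 and 1.55, and chromosome 13 is lowest in all 3.

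In bins of 1 Mb, called length was greater in KO in 2306 of 2405 bins (95.9%) and smaller in 83. Across bins, WT and KO called lengths had a Pearson r of 0.97; the bins of each library share its depth, and the value is a description. Bins were sorted into 5 equal parts by WT called length, which favours gains in the lowest. Called length in KO was 1.89 times that in WT in the lowest part and 1.39 to 1.47 times in the others, so the gain in length kept close proportion to the length already marked. The number of KO islands without a partner rose from 2.17 per bin in the lowest part to 16.3 in the highest. Their share of the KO islands did not rise. It was 45.9% in the lowest part and 35.9% to 41.5% in the others, against 40.8% over the whole list. Only 78 KO islands lay in the 31 bins with no WT island.

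The largest gains were in bins rich in islands. Between 80 and 81 Mb of chromosome 10, called length went from 341 kb in 75 islands to 530 kb in 103, with pooled folds of 3.05 and 4.41. Between 52 and 53 Mb of chromosome 7 it went from 299.2 to 488 kb (75 and 108 islands), and between 115 and 116 Mb of chromosome 5 from 234.6 to 415.8 kb (64 and 97 islands). Control reads per kb were lower in KO in all 3 bins, for instance 13.9 against 17.4 in WT on chromosome 7.

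The largest losses lay in adjoining bins of chromosome 4. Called length went from 340.2 kb in 94 islands to 275.6 kb in 59 between 146 and 147 Mb, and from 337.4 kb in 95 to 298.2 kb in 61 between 145 and 146 Mb. Unscaled ChIP reads were higher in KO in both (21179 and 25070, 21509 and 26585), but by less than the 1.41 times over the whole lists. Control reads per kb were higher as well, 10.7 in WT and 18.6 in KO, and 11.4 and 20.7, and folds were nearly level in the second bin (3.16 and 3.20). The next was between 19 and 20 Mb of chromosome 8, with 79.8 and 56.2 kb and 27.6 and 45.0 control reads per kb. In these 3 bins, unlike those with the largest gains, input was denser in KO, and its part in the loss of islands was not tested. They held 73 of the 1438 WT islands without a partner (5.08%). In the order given, 38 of 94, 29 of 95 and 6 of 13 WT islands there had no partner, a larger share than the 5.29% over the whole WT list. Outside these bins 68.4% of WT islands without a partner lay within 5 kb of a KO island. The 3 widest WT islands without a partner start in the chromosome 4 bin from 146 Mb or in the chromosome 8 bin. The chromosome 4 region among the lowest KO over WT folds also lies in the bin from 146 Mb.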

How the data were processed

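The authors' deposited lists hold 1 row per island. Per the submitters' processing notes, reads were aligned with Bowtie (version not given in the sources used here) to mm9 and islands called with SICER 1.1; per the names of the deposited lists, the window was 200 bp, the gap 200 bp and the FDR 0.05. Read filters and duplicate handling are also not given in the sources. Per the labels' protocols, chromatin was fixed in 1% formaldehyde for 10 minutes, cut with micrococcal nuclease and briefly sonicated, and 50 bp reads were sequenced. The deposited ChIP and control read counts are not scaled. The deposited fold is a ratio, ChIP over control reads times 1 constant per list, and each deposited p-value and FDR compares ChIP with control reads of 1 library. A caller with a 200 bp gap joins windows across 1 empty window, so islands lie at least 400 bp apart, and width depends on depth and background.

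Positions are 1-based. Islands were paired at 1 bp of overlap or more and grouped into regions. A gap was closed where 1 island of the other list covered all of it. Fold was recomputed from summed reads, with 0.25 for a control count of 0. Shares carry exact binomial (Clopper-Pearson) intervals, medians rank-based ones, read ratios exact conditional binomial ones and fold ratios of single regions normal ones on the log scale; the last 2 cover counting error only. Named regions are, by rule, the 3 first of each class: most islands joined or divided, largest gain or loss of width (100 or more ChIP reads in each library), highest or lowest fold ratio (also 20 or more control reads), most reads one-to-one and with the same ends, widest in 1 list alone, and bins of 1 Mb with the largest gain or loss. The members, the rule and the measures were chosen with earlier results of these data known. Computation ran under Python 3.11.15 with pandas 2.3.3, numpy 2.4.6, scipy 1.17.1 and matplotlib 3.10.9. The measures were tested on simulated data, and gave the same pairs as bedtools 2.31.1 (difference 0 islands). Of the 10 samples, the H3K27me3 and nuclease libraries were not used here, and input entered only as the control reads given in the lists.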

Additional observations from a re-analysis of the deposited data

How the results depend on the processing

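Of 104 repeated values, 46 stayed within the 95% interval of the reported value, or within 1.5 times it for counts, 56 moved beyond and 2 changed sign; the causes were not tested unless given. Islands left out for dense input, and gaps between islands that both have a partner, were chosen after the data were seen. No paired analysis was possible because each H3K4me3 group has 1 library. No fit left out a replicate for the same reason.

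With an FDR of 1e-05 or less, which shortens both lists, median widths were 3400 bp (WT) and 2600 bp (KO), median gaps 36600 and 23800 bp, shares with a partner 95.2% and 56.9%, and log2 medians 0.61 for fold and 0.014 for scaled reads. With a fold of 2 or more, widths were 3400 and 2400 bp, gaps 40400 and 25600 bp, shares with a partner 94.2% and 53.4%, log2 medians 0.58 and 0.013, and 71.5% of one-to-one islands were wider in KO. Equal list lengths, which cut only the KO list, gave it a width of 3400 bp and a gap of 26400 bp. Its median width then passed that of WT, which a cut by reads in KO alone favours. In that setting 72.3% of one-to-one islands were wider in KO and 219 regions were divided. Partners were found for 88.4% of WT and 77.6% of KO islands. Of KO gaps of up to 2 kb, 14.7% were closed in WT, and the log2 medians were 0.68 and 0.048. The sex chromosomes brought the gaps to 28800 and 18400 bp, and an overlap of 50% the shares with a partner to 93.4% and 58.4%.

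With islands 600 bp or less apart joined, widths were 3000 and 2200 bp, gaps 37200 and 23800 bp, 1306 regions were joined and 200 divided, and 60.2% of WT and 7.50% of KO gaps were closed. At 1000 bp the values were 3000 and 2400 bp, 39600 and 25200 bp, 1115 and 161 regions, and 60.6% and 7.80%. Joined regions outnumbered divided ones in each of these settings. Gaps between islands with partners gave 75.6% and 41.8%. Requiring a gain of 600 bp or more left 49.9% of one-to-one islands wider in KO.

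The log2 fold median was 0.64 with 100 reads in each library, 0.68 in one-to-one regions and 0.75 at intervals with the same ends. The scaled read median was 0.064 in one-to-one regions, but −0.054 with 100 reads and −0.023 at the same ends. It was 0.43 with no scaling, 0.17 scaled to intervals with the same ends and 0.88 scaled to the depth estimated from control reads. Scaled reads therefore give no direction, and the depth of WT relative to KO limits every comparison of reads.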
